A study of Mus musculus with 32 samples.

Results

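The 10 genes described here encode the core components of the basement membrane, the thin sheet of extracellular matrix on which epithelia rest. The rule names the genes and uses no measured value, although earlier results of these data were known when they were chosen. All 10 were found, each as 1 of the 55492 rows of the deposited expression table. All 10 passed the filter on low values used for the tests. They are the collagen IV chains Col4a1 and Col4a2, the laminin chains Lama1, Lama5, Lamb1 and Lamc1, the nidogens Nid1 and Nid2, the proteoglycan perlecan (Hspg2) and the collagen-binding protein Sparc.

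As background, laminins are trimers of an alpha, a beta and a gamma chain that bind cell-surface receptors and polymerise into a first network. Collagen IV forms a second, covalently crosslinked network from trimers that in most tissues contain 2 Col4a1 chains and 1 Col4a2 chain. Nidogens and perlecan link the networks, and Sparc is a secreted glycoprotein that binds collagen IV. In the embryo the optic vesicle and optic cup are surrounded by such a sheet, and the parietal endoderm, an extraembryonic cell type, lays down a particularly thick one that is rich in laminin with the Lama1 chain, collagen IV and Sparc.

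Polyadenylated RNA was sequenced from mouse embryonic stem cells (day 0) and from retinal organoids, three-dimensional cultures grown from those cells, at days 2, 4 and 6. WT is the Rx:GFP line, KO is the Mettl3 KO line, and Mettl3 is the catalytic component of the methyltransferase that places N6-methyladenosine (m6A) in messenger RNA. In the other two series of cultures, a METTL3 fusion, WTMTL3-GRBD in the sample titles and WTMETTL3-GRBD in the protocols, whose GRBD part the labels do not expand, was overexpressed in Mettl3 KO cells, either without dexamethasone (no Dex) or with dexamethasone, a synthetic glucocorticoid (Dex). The labels describe the fusion as cytosolic without Dex and nuclear with it. The 4 kinds of culture at 4 days gave 16 groups of 2 libraries, 32 in all. Dex was at 10 µM, and the cultures of days 2, 4 and 6 were labelled as treated with AGN, a compound the labels do not expand, at 0.1 µM. The protocol lists Dex for 2, 4 and 6 days, whereas a pair of day 0 libraries is labelled Dex treated, so what the day 0 difference between Dex and no Dex stands for is not given. Cultures without the fusion that received Dex were not among the groups, so Dex itself and the move of the fusion cannot be told apart. Whether the KO line is a single clone, and whether duplicates were separate cultures, is not given in the sources used here, and p-values therefore measure only the spread between these libraries.

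Estimated depth ran from 28.2 to 54.4 M fragments (M, mega) per library, and the member with the fewest fragments, Nid1, still had an estimated 282 in its lowest library. Across genes, the duplicates of a group had a Pearson r of 0.9922 to 0.9955. The WT day 0 duplicates were visibly apart for Col4a1 (31.2 and 38.04 FPKM), Lama5 (21.6 and 32.4 FPKM) and Hspg2 (57.0 and 70.7 FPKM), where FPKM is fragments per kilobase of transcript per mega of mapped fragments. Mettl3 itself was listed at 32.5 to 41.2 FPKM in WT libraries and 34.9 to 43.8 FPKM in KO libraries. The gene-level value does not separate edited from unedited transcripts and so does not check the KO label, which is taken as given. In the libraries with the fusion Mettl3 was at 44.5 to 75.1 FPKM. The summed level of the stem cell genes Pou5f1, Nanog and Zfp42 was 1457 and 1534 FPKM in WT at day 0 and 65.2 and 66.2 FPKM at day 6. The summed level of the eye field genes Rax, Six3, Lhx2 and Six6 at day 6 was 538 to 570 FPKM in WT, 5.6 and 6.3 FPKM in KO, 29.5 and 29.9 FPKM without Dex and 263 to 268 FPKM with Dex, so the defining markers of the eye field were nearly absent in the KO organoids.

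The stretches upstream of the start of 4 members are printed because they set a pair of genes that were lower in KO organoids at day 6 (Lamb1 and Nid1) beside a pair that did not pass the test there (Lama5 and Hspg2). They are RefSeq sequence of GRCm38.p6, part of a window from 250 bases before to 50 bases after the gene's start, cut to the bases before the annotated transcripts. The stretches are Lamb1 chr12:31265043-31265233 (plus strand), Nid1 chr13:13437352-13437550 (plus strand), Lama5 chr2:180225860-180226109 (minus strand) and Hspg2 chr4:137468553-137468768 (plus strand). Capitals mark matches, on either strand, to the GC box letters GGGCGG, the CCAAT box letters CCAAT and the TATA box letters TATAAA, and no matches to different motifs overlap in these stretches.
Lamb1: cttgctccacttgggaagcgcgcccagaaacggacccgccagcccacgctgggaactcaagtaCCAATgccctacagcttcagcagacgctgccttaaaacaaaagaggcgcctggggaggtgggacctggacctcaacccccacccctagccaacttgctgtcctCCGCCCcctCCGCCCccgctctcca
Nid1: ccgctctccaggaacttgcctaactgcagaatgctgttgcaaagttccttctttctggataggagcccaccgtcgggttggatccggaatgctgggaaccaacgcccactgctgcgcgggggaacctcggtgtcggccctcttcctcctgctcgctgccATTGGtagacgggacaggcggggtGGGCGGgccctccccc
Lama5: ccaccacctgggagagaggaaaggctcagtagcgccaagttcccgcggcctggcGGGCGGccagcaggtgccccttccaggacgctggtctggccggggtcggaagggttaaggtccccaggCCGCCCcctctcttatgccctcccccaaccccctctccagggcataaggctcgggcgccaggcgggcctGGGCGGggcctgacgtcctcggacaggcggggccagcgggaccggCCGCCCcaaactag
Hspg2: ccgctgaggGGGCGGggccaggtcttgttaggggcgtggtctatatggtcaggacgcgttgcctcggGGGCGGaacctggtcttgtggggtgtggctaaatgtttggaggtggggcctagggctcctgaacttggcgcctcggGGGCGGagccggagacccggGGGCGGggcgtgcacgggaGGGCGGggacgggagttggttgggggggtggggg
The Lamb1 and Nid1 stretches each held a CCAAT match and the Lama5 and Hspg2 stretches held none, while GC boxes were found in all 4 (2 in Lamb1, 1 in Nid1, 4 in Lama5, 5 in Hspg2). Over 32851 windows of 300 bases, 35.7% held the GC box letters, 37.4% the CCAAT letters and 13.6% the TATA letters. The printed stretches are shorter, at 191 to 250 bases, so these shares are not for stretches of their length. Of the 10 members 7 had a window in this reference. The whole Col4a1 window held 1 GC box and 1 CCAAT match, the Col4a2 window 3 and 1, and the Sparc window no match to any of the motifs. Col4a1, Col4a2 and Sparc were also lower in KO organoids at day 6, so a CCAAT match was not found in every member lower there. No member's window held TATAAA. A match is a description of the letters and not a bound site.

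At day 6 the WT organoids had the highest summed level of the 10 genes, and the KO organoids had less than their own stem cells. The sum was 783 and 782 FPKM in the WT libraries, 241 and 235 FPKM in KO, 170 and 172 FPKM without Dex and 288 and 282 FPKM with Dex. Of the 10 genes, 8 were lower in KO than in WT at day 6 and none was higher, in a comparison in which 65.1% of the 16276 tested genes were called (a Benjamini-Hochberg adjusted p under 0.05 from limma) and 34.2% were called lower. By at least 1 on the log2(FPKM + 1) scale 7 were lower, against 4.69% of all tested genes. The median difference of the 10 was -1.24 on that scale, beside -0.03 for all tested genes. In bulk RNA, fewer cells that express these genes and less RNA per cell cannot be told apart.

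**Figure D1:**
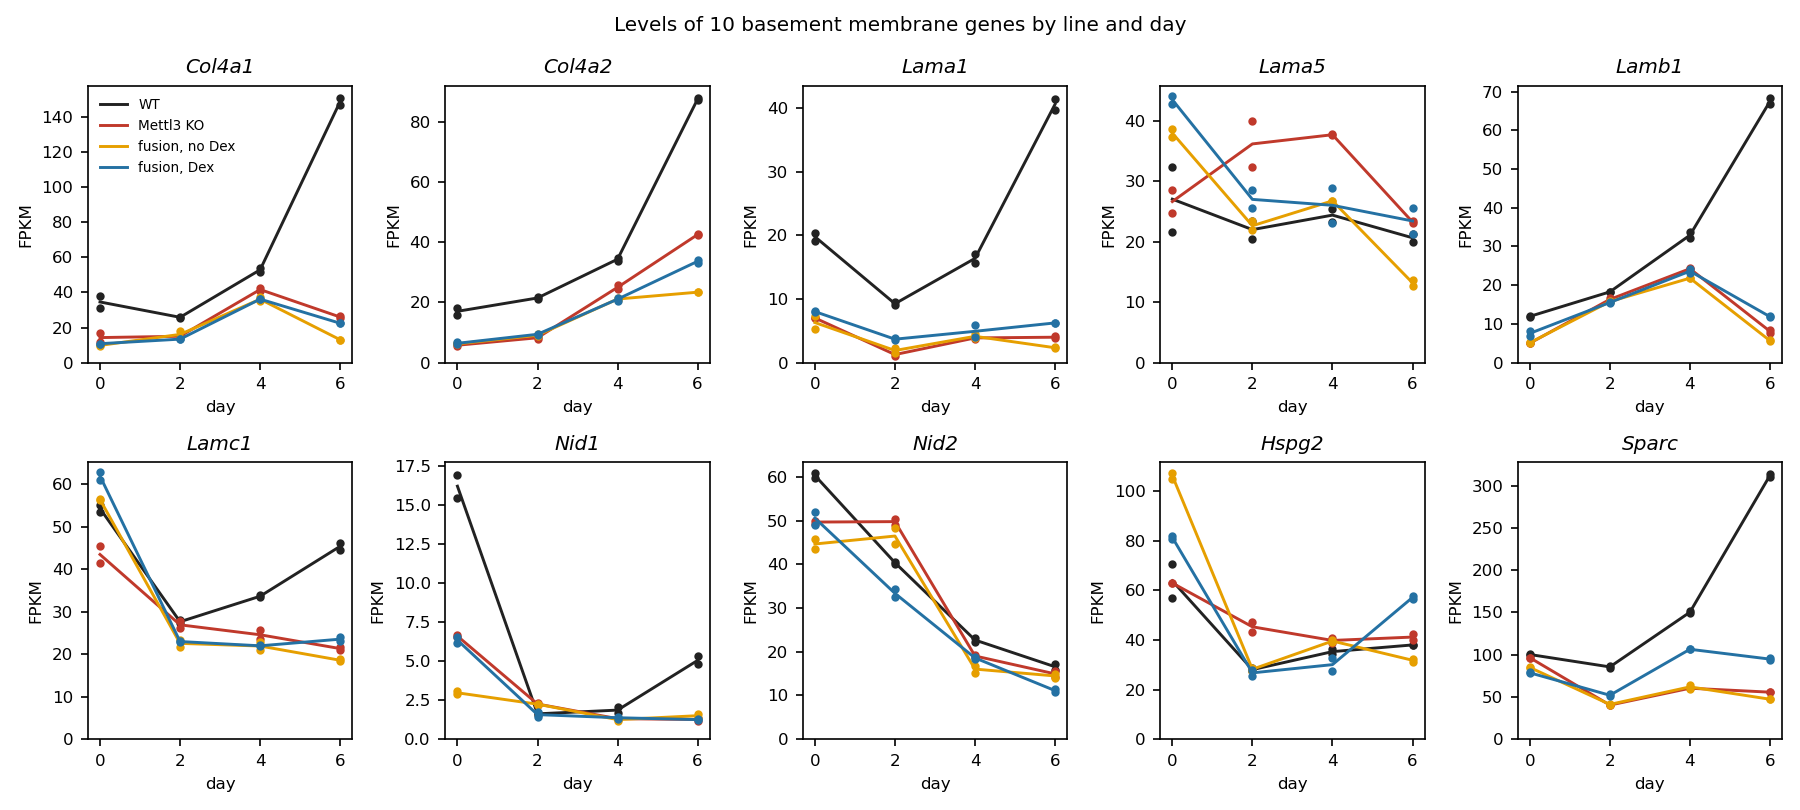
Level of each gene (FPKM, vertical axis from 0, with its own scale per gene) against day for the 4 kinds of culture. Points are single libraries and lines join the means of 2 libraries. Col4a1, Col4a2, Lama1, Lamb1 and Sparc were highest in WT at day 6, whereas Lama5, Lamc1, Nid1, Nid2 and Hspg2 were not.

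Most markers of another cell type were also lower in KO at day 6. Of 14 extraembryonic endoderm markers 13 were tested, and 12 of them were lower in KO than in WT at day 6, each by at least 1 on the log2 scale (4.69% of all tested genes), while Plat was higher (26.5 against 10.2 FPKM). The summed level of the list was 149 and 148 FPKM in WT, 40.8 and 40.1 FPKM in KO, 31.2 and 30.7 FPKM without Dex and 32.9 and 34.2 FPKM with Dex. Sox17, a transcription factor of endoderm, had 20.5 FPKM in the WT organoids and 0.18 FPKM in the KO organoids, Gata4 at 9.98 and 0.06 FPKM, Gata6 at 6.04 and 0.03 FPKM, and Srgn, a secreted-granule proteoglycan, at 49.2 and 0.09 FPKM. The transcription factors Sox17, Gata4 and Gata6 were thus near 0 in KO organoids and present in WT organoids. Not all of the list was near 0 in KO: Dab2 was at 11.1 FPKM in KO against 25.7 FPKM in WT, and Pdgfra at 1.54 against 4.36 FPKM. Plat and Dab2 made up most of the KO sum. From day 0 to day 2 in WT the summed level of the markers went from 37.5 to 136.3 FPKM. Over the same days the summed level of the basement membrane genes went from 405.1 to 279.8 FPKM. The part of these markers in the lower level of the basement membrane genes was not tested.

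Col4a1 and Col4a2 encode the widely expressed chains of collagen IV. They lie head to head on GRCm38 chromosome 8, Col4a1 (ENSMUSG00000031502) at chr8:11198423-11312826 on the minus strand and Col4a2 (ENSMUSG00000031503) at chr8:11312805-11449287 on the plus strand, with annotated ends that overlap by 22 bases. At day 6 Col4a1 was at 147 and 151 FPKM in WT, 26.4 and 25.5 FPKM in KO, 13.0 and 13.0 FPKM without Dex and 22.3 and 22.5 FPKM with Dex. No KO library reached any WT library, and the WT mean was 5.73 times the KO mean (log2 difference -2.47, SE 0.11, adjusted p = 1.55e-13). Col4a2 was at 87.3 and 87.7 FPKM in WT, 42.4 and 42.7 FPKM in KO, 23.3 and 23.5 FPKM without Dex and 34.2 and 33.1 FPKM with Dex. The WT mean of Col4a2 was 2.06 times the KO mean (log2 difference -1.02, SE 0.06, adjusted p = 7.95e-12), a smaller gap than for its partner.

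The ratio of the chains changed sides at day 6. In every WT library, and in every library of the other cultures at days 0, 2 and 4, Col4a1 was above Col4a2 in FPKM, a scale that accounts for transcript length, by a ratio of 1.20 to 2.70. At day 6 the ratio was 1.69 and 1.72 in WT, 0.62 and 0.60 in KO, 0.56 and 0.56 without Dex and 0.65 and 0.68 with Dex. All 6 day 6 libraries of the KO-derived cultures therefore had more Col4a2 than Col4a1, and no other library did. Over time Col4a2 rose from day 0 to day 6 in all 4 kinds of culture, on the log2 scale by 2.30 (WT), 2.69 (KO), 1.76 (no Dex) and 2.23 (Dex), with an SE of 0.06 each. Col4a1 rose by 2.08 in WT, 0.84 in KO and 0.99 with Dex (SE 0.11 each). Its rise of 0.37 without Dex was 0.12 after rescaling by median-of-ratios factors and then did not pass the test (adjusted p = 0.33). In KO its mean was 41.7 FPKM at day 4 and 26.0 FPKM at day 6.

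**Figure D2:**
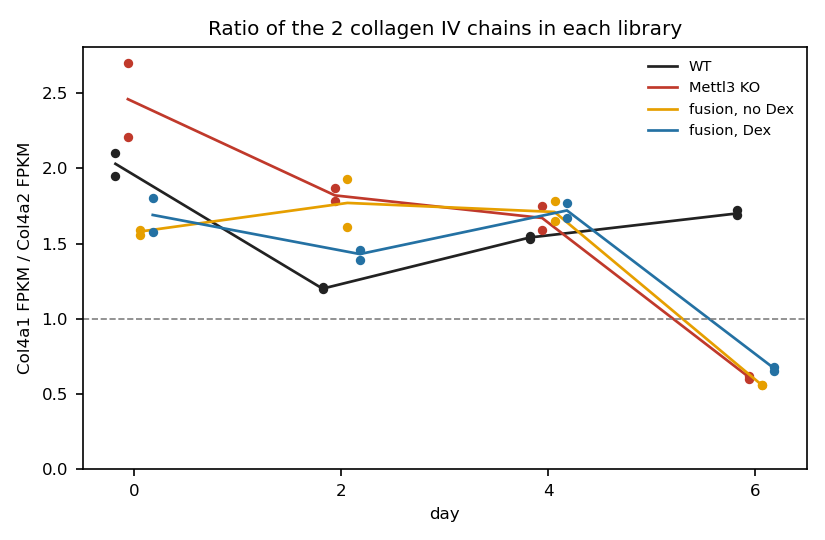
Ratio of Col4a1 to Col4a2 FPKM in each library (points, set slightly apart by culture) against day, with lines through the means of 2 libraries and a dashed line at 1. The KO, no Dex and Dex libraries at day 6 lie between 0.56 and 0.68, and every other library lies at 1.20 or above.

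Both chains were already lower in KO stem cells. At day 0 Col4a1 was at 31.2 and 38.04 FPKM in WT against 16.7 and 11.9 FPKM in KO (log2 difference -1.23, SE 0.11), and Col4a2 at 15.95 and 18.1 FPKM against 6.16 and 5.36 FPKM (log2 difference -1.41, SE 0.06). The groups did not overlap. The tested genes of chromosome 8 as a whole, 858 in number, moved the opposite way: their median difference between KO and WT exceeded that of the other chromosomes by 0.05, 0.16, 0.28 and 0.40 on the log2 scale at days 0, 2, 4 and 6. With each library centred by chromosome, the day 4 difference between KO and WT was -0.70 for Col4a1, against -0.34 without centring, and -0.81 for Col4a2, against -0.44. The uncentred day 4 difference of Col4a1 did not pass the test without the second KO library (-0.30, adjusted p = 0.0695) or without the second WT library (-0.31, adjusted p = 0.0651).

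Among the laminin chains the alpha chains parted. Lama1 (ENSMUSG00000032796, chr17:67697259-67822647, plus strand), the alpha chain typical of the early embryo, was at 41.5 and 39.8 FPKM in WT at day 6, 4.14 and 3.84 FPKM in KO, 2.22 and 2.43 FPKM without Dex and 6.27 and 6.22 FPKM with Dex. Its WT mean was 10.2 times its KO mean, the widest ratio among the 10 genes (log2 difference -3.06, SE 0.14, adjusted p = 3.63e-13). Lama5 (ENSMUSG00000015647, chr2:180176373-180225859, minus strand), the alpha chain common in later basement membranes, was at 19.95 and 21.3 FPKM in WT and 23.5 and 23.0 FPKM in KO, and the difference of 0.16 (SE 0.14, adjusted p = 0.323) did not pass the test. With only the groups compared the same difference passed (SE 0.04, adjusted p = 0.0407). In WT at day 6 Lama1 stood at 2.08 and 1.87 times Lama5, whereas in the other cultures at day 6 the ratio lay between 0.17 and 0.29.

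Lama1 was also lower in KO at each earlier day. The values were 19.1 and 20.5 FPKM in WT against 7.09 and 6.95 FPKM in KO at day 0, 9.45 and 9.07 against 1.46 and 1.06 FPKM at day 2, and 15.7 and 17.1 against 3.66 and 4.10 FPKM at day 4. The log2 differences were -1.37, -2.19 and -1.83 (SE 0.14 each). In the order of all 16 groups the 4 WT groups had the highest Lama1 levels (day 6, then 0, 4 and 2), with no overlap between neighbours among them or with the next group. From day 0 to day 6 Lama1 rose by 1.00 in WT and fell by 0.69 in KO and by 1.12 without Dex (SE 0.14 each). Lama5 was higher in KO than in WT at day 2 (32.4 and 39.9 against 23.5 and 20.5 FPKM, log2 difference 0.69) and at day 4 (37.8 and 37.6 against 23.3 and 25.5 FPKM, log2 difference 0.61, SE 0.14 each), and did not pass the test at day 0 or day 6.

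Lamb1 (ENSMUSG00000002900, chr12:31265234-31329644, plus strand), whose upstream stretch with the CCAAT match is printed above, encodes a beta chain. It was at 66.7 and 68.3 FPKM in WT at day 6, 7.69 and 8.47 FPKM in KO, 5.75 and 5.55 FPKM without Dex and 11.7 and 12.1 FPKM with Dex. The WT mean was 8.35 times the KO mean (log2 difference -2.92, SE 0.05, adjusted p = 7.15e-20). Up to day 4 the cultures were closer together, though Lamb1 was already lower in KO at day 0, with a mean of 5.00 FPKM against 11.93 FPKM in WT. At day 4 Lamb1 was at 32.2 and 33.6 FPKM in WT and 24.2 and 24.4 FPKM in KO (log2 difference -0.42, SE 0.05). From day 4 to day 6 the mean went from 32.9 to 67.5 FPKM in WT, and was 24.3 and then 8.08 FPKM in KO, 21.8 and then 5.65 FPKM without Dex and 23.6 and then 11.9 FPKM with Dex. Lamc1 (ENSMUSG00000026478, chr1:153218922-153332786, minus strand), the gamma chain that most laminin trimers share, was at 46.2 and 44.6 FPKM in WT and 21.6 and 21.0 FPKM in KO at day 6 (log2 difference -1.06, SE 0.05, adjusted p = 4.84e-13). From day 0 to day 6 its log2 change was -0.25 (WT), -0.99 (KO), -1.55 (no Dex) and -1.36 (Dex), with an SE of 0.05 each. The WT value was -0.42 after rescaling and also after centring by chromosome.

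The nidogens link laminin to collagen IV. Nid1 (ENSMUSG00000005397, chr13:13437551-13512269, plus strand) was highest in stem cells, at 17.0 and 15.5 FPKM in WT, 6.69 and 6.53 FPKM in KO, 2.88 and 3.07 FPKM without Dex and 6.53 and 6.16 FPKM with Dex. At day 6 it was at 5.31 and 4.80 FPKM in WT and between 1.16 and 1.64 FPKM in all 6 other libraries. KO was lower than WT at day 0 (log2 difference -1.18, SE 0.07) and at day 6 (-1.42, SE 0.07, adjusted p = 1.66e-12), and higher at day 2 (2.20 and 2.30 against 1.69 and 1.56 FPKM, 0.31, SE 0.07). Nid2 (ENSMUSG00000021806, chr14:19751265-19811787, plus strand) took a course of its own. It fell from day 0 to day 6 in each kind of culture, from 60.8 and 59.9 to 17.2 and 15.9 FPKM in WT and from 50.0 and 49.3 to 15.7 and 14.2 FPKM in KO (log2 change -1.81 and -1.67, SE 0.06). The day 6 difference between KO and WT was -0.14 (SE 0.06, adjusted p = 0.0342), and it did not pass the test without the first WT library (-0.084), without the second KO library (-0.071), with libraries centred by chromosome (-0.030), after median-of-ratios rescaling (-0.11), with no filter on low values (adjusted p = 0.0583) or with only the groups compared (adjusted p = 0.185). Without Nid2, 7 members were lower in KO at day 6.

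Hspg2 (ENSMUSG00000028763, chr4:137468769-137570630, plus strand) encodes perlecan, the heparan sulfate proteoglycan of basement membranes. At day 6 it was at 37.9 and 38.1 FPKM in WT and 42.2 and 40.1 FPKM in KO, a difference of 0.11 (SE 0.08, adjusted p = 0.226) that did not pass the test. Its highest level was in the stem cells with the fusion, at 108 and 105 FPKM without Dex and 80.7 and 82.0 FPKM with Dex, above both WT (57.0 and 70.7 FPKM) and KO (62.9 and 63.0 FPKM). With Dex it was at 57.8 and 56.5 FPKM at day 6, higher than WT by 0.58 on the log2 scale (SE 0.08, adjusted p = 3.00e-06), the one member called higher than WT in those organoids.

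Sparc (ENSMUSG00000018593, chr11:55394500-55423183, minus strand) had the highest FPKM of the 10 genes in WT organoids. In stem cells its level was 99.8 and 100.4 FPKM in WT and 96.6 and 96.1 FPKM in KO, a difference that did not pass the test (adjusted p = 0.0901). From day 2 on the KO level lay below WT, at 40.4 and 40.1 against 86.5 and 84.3 FPKM at day 2, 60.2 and 60.2 against 151 and 149 FPKM at day 4, and 55.7 and 55.3 against 314 and 311 FPKM at day 6. The log2 differences were -1.07, -1.30 and -2.47 (SE 0.03 each, adjusted p = 4.59e-23 at day 6). From day 0 to day 6 Sparc rose by 1.63 in WT and fell by 0.78 in KO and by 0.83 without Dex (SE 0.03 each).

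**Figure D3:**
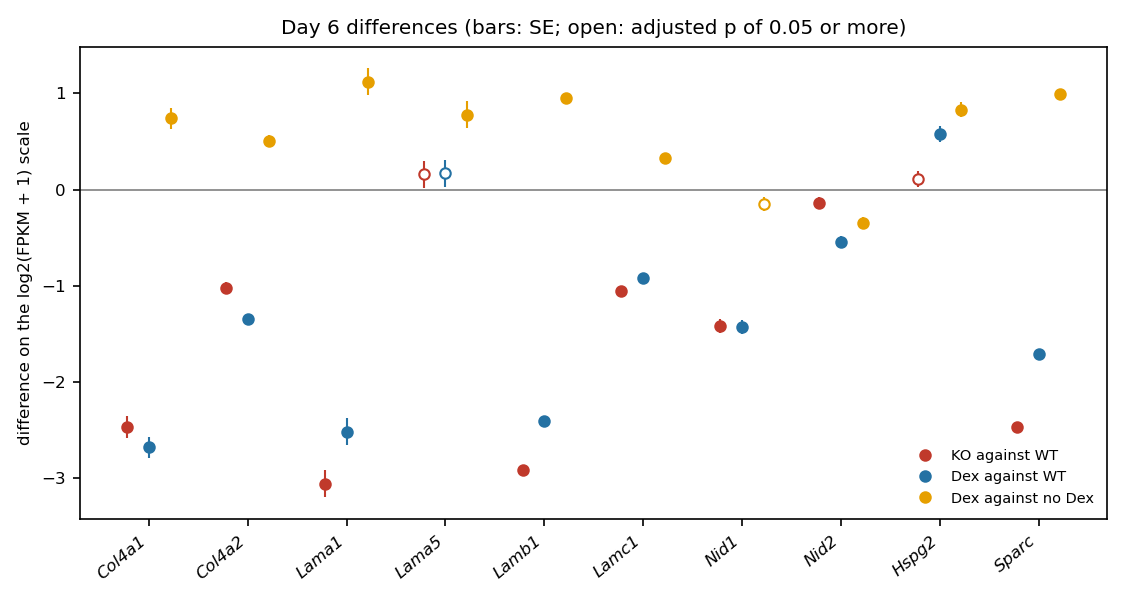
Differences at day 6 on the log2(FPKM + 1) scale (points) with their SE (bars) for KO against WT, Dex against WT and Dex against no Dex. Filled points passed the test and open points did not. Lama1 and Lamb1 lie lowest for KO against WT, at -3.06 and -2.92, and 8 of the 10 genes lie above 0 for Dex against no Dex.

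Across days, the stem cells of day 0 had 7 members lower in KO than in WT and none higher, with 48.2% of tested genes called and 29.8% called lower. There were 5 lower and 4 higher at day 2 (58.9% called), and 8 lower and 1 higher at day 4 (60.5% called, 24% lower). At day 0, 5 members were lower by at least 1 on the log2 scale (Col4a1, Col4a2, Lama1, Lamb1 and Nid1), against 0.915% of tested genes, and those 5 calls also stood when any single library was left out. The members higher at day 2 were Lama5, Nid1, Nid2 and Hspg2. The median difference over the 10 was -0.71, -0.10, -0.38 and -1.24 in day order, beside -0.04, 0.09, 0.06 and -0.03 for all tested genes. Of the extraembryonic endoderm markers, 11 of 13 tested were lower in KO at day 0, beside 29.8% of all tested genes called lower. At day 2, 13 of 13 of these markers were lower, beside 58.9% of all tested genes called in either direction. The share called lower alone is not given for day 2. Their summed level was 37.3 and 37.6 FPKM in WT and 6.6 and 7.0 FPKM in KO at day 0, and 134 and 138 against 9.3 and 8.6 FPKM at day 2, when the basement membrane genes were split in direction.

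With the fusion but without Dex, most members were lower than in KO organoids. Against KO, 8 members were lower and none higher at day 6, in a comparison with 49% of tested genes called and 27.9% called lower. Col4a1 was at 13.0 and 13.0 FPKM against 26.4 and 25.5 FPKM (log2 difference -0.94, SE 0.11) and Col4a2 at 23.3 and 23.5 FPKM against 42.4 and 42.7 FPKM (-0.84, SE 0.06). Lama5 was lower by 0.77 (SE 0.14; 12.7 and 13.7 FPKM against 23.5 and 23.0 FPKM). The median over the 10 was -0.41, beside -0.01 for all tested genes. At day 0 there were 3 members higher and 4 lower (49.1% called), 3 were lower at day 2 (37% called, 22.2% lower) and 5 at day 4 (26.7% called, 17% lower), with none higher at days 2 and 4. Of the day 0 calls, Nid2 did not pass after rescaling (-0.021, adjusted p = 0.795) or centring by chromosome (-0.064, adjusted p = 0.365). Sparc did not pass after rescaling (-0.051, adjusted p = 0.122), nor Col4a1 with only the groups compared (-0.48, adjusted p = 0.133). The count at day 4 was 1 without the second KO library, 2 without the second library of the no Dex group and 3 without either other library.

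With Dex most members were higher than without it at day 6, though well below WT for those that were lower in KO. Of the 10 genes, 8 were higher with Dex and Nid2 was lower, in a comparison with 42.7% of tested genes called and 23.8% called higher. The median over the 10 was 0.76 on the log2 scale, beside 0.01 for all tested genes. Lama1 differed most, at 6.27 and 6.22 FPKM with Dex against 2.22 and 2.43 FPKM without (log2 difference 1.12, SE 0.14, adjusted p = 2.85e-06). Sparc was at 95.4 and 93.9 FPKM against 47.2 and 47.1 FPKM (0.99, SE 0.03, adjusted p = 7.97e-16), and Lamb1 at 11.7 and 12.1 FPKM against 5.75 and 5.55 FPKM (0.95, SE 0.05). Neither gene's groups overlapped.

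Further increases with Dex at day 6 were 0.83 for Hspg2 (SE 0.08), 0.78 for Lama5 (SE 0.14), 0.74 for Col4a1 (SE 0.11), 0.51 for Col4a2 (SE 0.06) and 0.33 for Lamc1 (SE 0.05). Nid2 was lower by 0.35 (SE 0.06; 10.8 and 11.4 FPKM with Dex, 14.9 and 13.95 FPKM without). Nid1 did not pass the test (-0.15, SE 0.07, adjusted p = 0.103), and without the first library of the no Dex group its difference was -0.23 and passed (adjusted p = 0.0442). Of the 13 tested extraembryonic endoderm markers, 8 were higher with Dex, 2 lower and 3 not called, beside the 42.7% of tested genes called. Their summed level was nearly level (32.9 and 34.2 against 31.2 and 30.7 FPKM), while Sox17 was at 2.88 against 0.27 FPKM and Srgn at 2.90 against 0.24 FPKM. The part of those markers in the Dex difference was not tested.

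At earlier days the Dex difference was smaller and mixed. There were 4 members higher and 2 lower at day 0 (43.4% of tested genes called), 2 higher and 2 lower at day 2 (44.3% called), and 2 higher and 1 lower at day 4 (40.2% called). Sparc was the member that was higher with Dex at each of days 2, 4 and 6, at 51.0 and 52.8 against 40.04 and 42.03 FPKM at day 2 (log2 difference 0.33, SE 0.03) and at 106 and 106 against 59.9 and 63.8 FPKM at day 4 (0.77, SE 0.03). It was lower with Dex at day 0 (77.8 and 79.2 against 84.9 and 84.7 FPKM, -0.11, SE 0.03). Nid1 was at 6.53 and 6.16 FPKM with Dex and 2.88 and 3.07 FPKM without it at day 0 (0.89, SE 0.07), in stem cells.

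Dex organoids were below WT for most members. At day 6, 8 were lower than WT, Hspg2 was higher and Lama5 was not called, with 61.4% of all tested genes called and 32.2% called lower. The widest gaps were Col4a1 (-2.68, SE 0.11), Lama1 (-2.52, SE 0.14), Lamb1 (-2.41, SE 0.05) and Sparc (-1.71, SE 0.03). This comparison shares its WT libraries with KO against WT, where the same genes differed by -2.47, -3.06, -2.92 and -2.47, so the values are set side by side only. At day 0, 3 members were higher than WT and 7 lower (49.8% called), 7 were lower at day 2 (29.4% called, 17.2% lower) and 9 at day 4 (44.7% called, 19.1% lower). By day 6 the summed eye field genes stood at 263 to 268 FPKM with Dex against 538 to 570 FPKM in WT, and the summed basement membrane genes at 282 to 288 FPKM against 782 to 783 FPKM.

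From stem cells to day 6, the members split evenly in WT. There 5 members rose (Col4a1, Col4a2, Lama1, Lamb1 and Sparc, each by at least 1 on the log2 scale) and 5 fell, with 78.1% of tested genes called and 15.9% higher by at least 1. Lamb1 rose most, from 12.01 and 11.9 FPKM to 66.7 and 68.3 FPKM (log2 change 2.40, SE 0.05). Among those that fell in WT, Hspg2 changed by -0.73 (SE 0.08) and Nid1 by -1.51 (SE 0.07). The fall of Lama5 (-0.35) was -0.63 without the first WT day 0 library and -0.066 without the second, and did not pass the test without the second day 0 library or either day 6 library. In KO 3 rose and 6 fell (80.4% called), without Dex 3 rose and 7 fell (81.9% called), and with Dex 4 rose and 6 fell (80.4% called). With Dex the fall of Lama1 did not pass with a pseudocount of 0.1 (-0.35, adjusted p = 0.0837). It also did not pass with no filter on low values (-0.32, adjusted p = 0.0839) or with a replicate block. With single libraries left out it was -0.29 to -0.34. The rise of Sparc with Dex did not pass after rescaling (0.059, adjusted p = 0.0505). Without Dex the small rise of Lamb1 (0.12) turned to -0.11 after rescaling and -0.20 after centring by chromosome.

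The test of the difference itself asked whether KO against WT was another at day 6 than at day 0. It was for 6 of the 10 members, a share close to the 56.9% of all tested genes called. Of those 6, 5 were further below WT at day 6, and Col4a2 was less far below (0.39, SE 0.08), which did not pass the test with libraries centred by chromosome (0.10, adjusted p = 0.253). Sparc shifted most (-2.41, SE 0.04), followed by Lamb1 (-1.81, SE 0.07) and Lama1 (-1.69, SE 0.20). For Dex against no Dex all 10 members differed between the days, 8 upward and 2 downward, with 48.7% of tested genes called.

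Most other laminin chains were low. Of 7 listed, 3 passed the filter on low values, and of these only Lamb2, another beta chain, was called in KO against WT at day 6, at 48.3 FPKM in KO and 21.5 FPKM in WT (log2 difference 1.13, SE 0.20, adjusted p = 4.41e-05). Lamb2 in KO thus exceeded Lamb1 (8.08 FPKM), whereas in WT Lamb1 (67.5 FPKM) exceeded Lamb2. Among 6 other basement membrane collagens 3 were tested, of which 1 was higher and 2 lower in the same comparison, in which 65.1% of tested genes were called. Col18a1 had the highest level of that list, with a mean of 151 FPKM in KO at day 2. None of these collagens moved by 1 on the log2 scale at day 6.

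Among 12 other basement membrane glycoproteins 9 were tested, and 6 were lower in KO at day 6 and 2 higher, beside 65.1% of tested genes called and 34.2% called lower. Tinagl1, a matricellular protein related to tubulointerstitial nephritis antigen, was at 0.47 FPKM in KO and 22.8 FPKM in WT (log2 difference -4.02, SE 0.08), and Smoc1, a secreted calcium-binding protein in the family of Sparc, was at 5.13 against 19.6 FPKM (-1.75, SE 0.05). With Dex, Tinagl1 was at 5.47 FPKM against 0.51 FPKM without it (2.10, SE 0.08). Agrn, the heparan sulfate proteoglycan agrin, had the highest level of this list, 77.1 FPKM in KO at day 6.

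Of 10 receptors for these components 7 were tested. All 7 were lower in KO than in WT at day 0, where 29.8% of tested genes were called lower, and at day 6 there were 3 higher and 2 lower, beside 65.1% of tested genes called. Itga3, an integrin chain of laminin receptors, was at 13.7 FPKM in KO and 6.27 FPKM in WT at day 6 (log2 difference 1.02, SE 0.09), and Bcam, a laminin receptor that binds Lama5, was at 16.7 against 43.2 FPKM (-1.33, SE 0.04). Bcam was at 23.5 FPKM with Dex and 8.88 FPKM without it (1.31, SE 0.04). Of 11 genes for collagen processing and crosslinking, 4 were higher and 5 lower in KO at day 6 (65.1% of tested genes called), and Plod2, a lysyl hydroxylase, was lower by 1 or more (19.2 against 39.6 FPKM, -1.01, SE 0.04). With Dex 7 of those 11 were higher than without and none was lower, beside 42.7% of tested genes called and 23.8% called higher. Of 7 proteases and inhibitors, Mmp2, a gelatinase that cleaves collagen IV, was at 30.1 FPKM in KO and 12.9 FPKM in WT (1.16, SE 0.09), and its inhibitor family member Timp3 at 1.12 against 6.63 FPKM (-1.85, SE 0.09).

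Markers of 2 further cell types that make or adjoin basement membrane were measured. Of 9 fibroblast markers 8 were tested, and 6 were higher and 2 lower in KO at day 6 (65.1% of tested genes called), with a summed level of 29.1 and 30.6 FPKM in KO, 10.6 and 10.9 FPKM in WT, 25.4 and 25.5 FPKM without Dex and 23.3 and 22.0 FPKM with Dex. Twist1 alone made up most of the KO sum, at 20.1 FPKM in KO against 1.57 FPKM in WT (3.04, SE 0.11). Col1a1 was at 2.07 against 0.12 FPKM and Col3a1 at 2.77 against 0.45 FPKM. Col1a2, which made up most of the WT sum, was at 1.52 against 7.13 FPKM. Col1a1 was at 0.56 FPKM with Dex and 2.21 FPKM without it (-1.03, SE 0.06). Of 6 endothelial markers 3 were tested and all were lower in KO at day 6, where 34.2% of tested genes were called lower. Cdh5, Tie1 and Erg did not pass the filter on low values, with highest group means of 0.41, 0.37 and 0.08 FPKM. Among the tested ones Tek was at 0.08 FPKM in KO against 0.58 FPKM in WT, and Pecam1 at 0.47 against 1.33 FPKM. Kdr, a receptor for vascular endothelial growth factor, was at 0.23 FPKM in KO against 11.5 FPKM in WT (-3.34, SE 0.05), and Pecam1 was highest in WT stem cells, at a mean of 28.8 FPKM. Their part in the differences of the basement membrane genes was not tested.

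**Figure D4:**
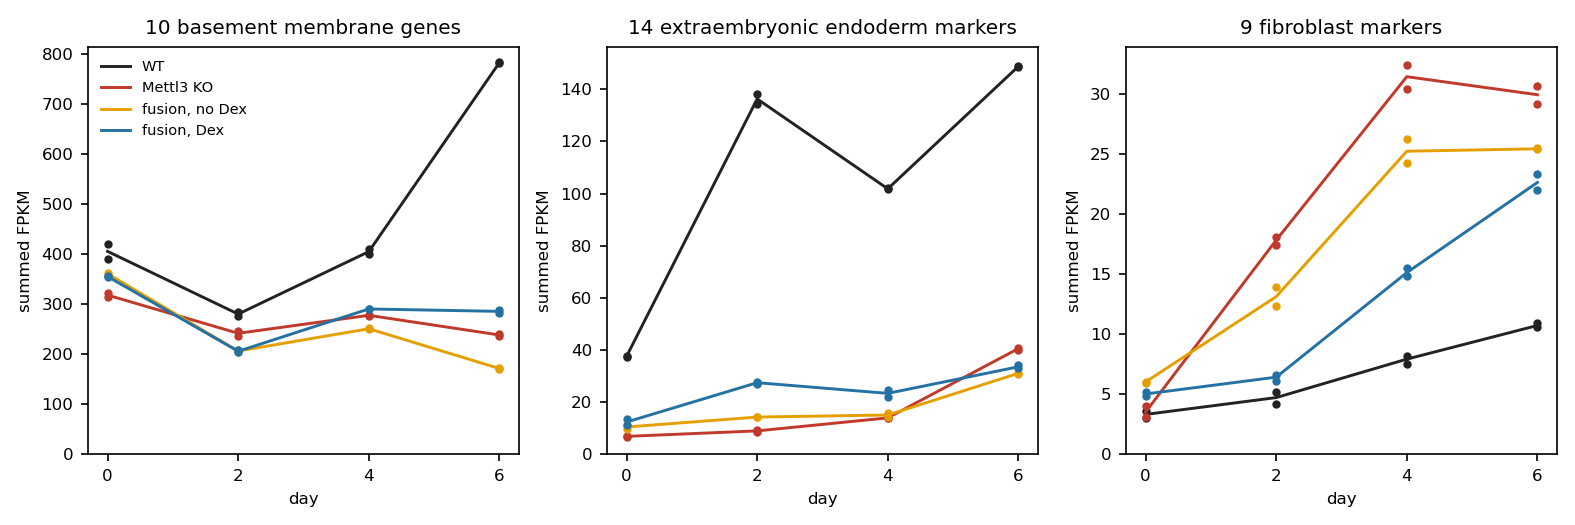
Summed FPKM (vertical axes from 0, each panel with its own scale) of the 10 basement membrane genes, 14 extraembryonic endoderm markers and 9 fibroblast markers against day. Points are libraries and lines join the means of 2. In WT the basement membrane sum was 783 and 782 FPKM and the endoderm marker sum 149 and 148 FPKM at day 6, the highest of the 4 kinds of culture. In KO at day 6 most of the fibroblast marker sum was Twist1, and most of the endoderm marker sum was Plat and Dab2.

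Over the 16 group means of log2(FPKM + 1), members did not share a single pattern. The closest pair was Lama1 and Sparc (Pearson r = 0.92), then Col4a1 and Lamb1 (0.86) and Col4a1 and Col4a2 (0.83), and the most opposed pair was Col4a2 and Nid2 (-0.77). With the mean of the standardised members, which includes each gene itself, r was 0.89 for Lama1, 0.82 for Sparc, 0.81 for Lamc1, 0.69 for Nid1 and 0.57 for Col4a1, and between 0.22 and 0.43 for the other members. These points share libraries and days, and r is a description only. The 5 other genes most like that mean were Tinagl1 (0.89), the endoderm factor Gata6 (0.84), Tor1aip2 (0.84), Suclg2 (0.83) and Serpinb6c (0.82). Tinagl1 and Gata6 had their highest level in WT at day 6 (22.8 and 6.04 FPKM), and the other 3 in WT stem cells.

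Since the knocked-out enzyme methylates adenosine within a short consensus, the letters GGACT, a common form of it, were counted in the longest coding transcript of each gene. The density was 2.72 per kilobase in Col4a1, 2.17 in Col4a2 and 1.89 in Lama1, at the percentiles 96, 91 and 86 of 13588 tested coding genes, whose median was 1.05. Sparc had 0.43 per kilobase (percentile 15) and Lamc1 0.66 (percentile 26). The remaining members lay between 1.15 and 1.64. The letters are a description, and no methylation was measured here.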

How the data were processed

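Polyadenylated RNA was measured in 32 libraries, 16 groups of 2. The authors deposited FPKM per gene in a single table. Per the submitters' processing notes STAR, Cuffdiff and mm10 were used, with roles and versions not given in the sources used here. Positions are from the GENCODE annotation of GRCm38, matched by gene ID for 99.4% of rows.

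Log2(FPKM + 1) values were fitted with limma 3.58.1 in R 4.3.3 (lmFit with 16 group means, contrasts.fit, eBayes with a trend, 16 residual degrees of freedom), over 16276 genes with at least 1 FPKM in at least 2 libraries. Genes were called at a two-sided Benjamini-Hochberg adjusted p under 0.05, over all tested genes. This scale understates the change of low genes. The procedure was tested on simulated data.

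Depth came from the spacing of low FPKM values. In each library 87.9% to 91.8% of them were within 0.2 of a whole fragment, where 40% would be by chance. It covers counting error only.

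Alternatives were a pseudocount of 0.1, no filter, a mean FPKM of at least 5, median-of-ratios rescaling, the compared groups alone, a replicate block, centring by chromosome, and leaving out each library. Members and lists were chosen with earlier results of these data known. Besides the members, the text names from each list, at day 6, up to 3 called genes with the largest rise and 3 with the largest fall of at least 1 on the log2 scale, the genes of highest level in a marker list, and the 5 genes most like the members. Agrn, Col18a1, Dab2, Pdgfra, Thbd, Amn, Cubn, Ttr, Afp, Tek, Cdh5, Tie1 and Erg were chosen after their values were seen.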

Additional observations from a re-analysis of the deposited data

Results flagged for a closer look

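For these genes the difference between cultures was not the same at day 6 as at day 0, by a test of the difference itself (limma, adjusted over 16276 genes). Each value is the day 6 difference less the day 0 difference on the log2(FPKM + 1) scale. For KO against WT it was -1.24 for Col4a1, -1.69 for Lama1, -1.81 for Lamb1, -0.74 for Lamc1 and -2.41 for Sparc, all further below WT at day 6. Col4a2 went the other way (0.39, SE 0.08, adjusted p = 0.000479), and centring each library by chromosome left 0.10 (adjusted p = 0.253).

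For Dex against no Dex it was 0.62 for Col4a1, 0.47 for Col4a2, 0.81 for Lama1, 0.59 for Lama5, 0.47 for Lamb1, 0.19 for Lamc1, 1.21 for Hspg2 and 1.10 for Sparc. Nid1 (-1.04) and Nid2 (-0.53) shifted downward. The Lama5 value did not pass the test without the second Dex day 0 library (0.57), the first Dex day 6 library (0.46), the second no Dex day 0 library (0.56) or the first no Dex day 6 library (0.53). The Lamc1 value did not pass without the first Dex day 0 library (0.17), the second Dex day 6 library (0.17), the first or second no Dex day 0 library (0.20 and 0.19) or the second no Dex day 6 library (0.18). What the day 0 Dex libraries received is not given beyond their label.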

How the results depend on the processing

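Of 1929 recomputed differences of the members, 1831 had the same direction and call, 94 kept the direction but no longer passed, 2 newly passed and 2 reversed. The reversed ones were Lamb1 from day 0 to day 6 without Dex, 0.12 as reported, -0.11 after median-of-ratios rescaling and -0.20 with libraries centred by chromosome. Of 250 recomputed counts of called members 240 stayed within 1.5 times. For no Dex against KO the count was 3 at day 2 and became 5 under rescaling and 5 under centring by chromosome, and it was 5 at day 4 and became 3 with only the groups compared, 3 under centring, and between 1 and 3 with single libraries left out. For Dex against no Dex it was 4 at day 2 and 3 at day 4, and became 2 and 1 with only the groups compared. The causes were not tested.

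The replicate numbers are shared by the groups, and the labels give them as rounds of library preparation only. Differences between duplicates correlated between groups at -0.09 to 0.13 over 120 pairs of groups. Whether groups shared a round cannot be told from these correlations. With the replicate block all 22 counts stayed within 1.5 times, for example 8 in KO against WT at day 6, and Lama1 from day 0 to day 6 with Dex no longer passed (-0.32, adjusted p = 0.0558). Rescaling moved the median change of all genes from day 0 to day 6 by more than 0.1 in each kind of culture (from 0.166 to -0.025 without Dex). With 2 libraries per group, outlying libraries were not tested. The lowest depth behind a member was an estimated 282 fragments, for Nid1.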
